A study of Mus musculus with 12 samples.

Results

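The Notch receptors Notch1, Notch2 and Notch3, the ligand Jag1, the HES/HEY repressor genes Hes1, Hey1 and Heyl and the feedback inhibitor Nrarp were followed by RNA-seq in mouse bone marrow-derived mesenchymal stromal cells (MSCs). These 8 genes were chosen by name, as members of one pathway, among the 55487 genes of the count table. All 8 were found by symbol, 5 of them had enough counts to be tested (Notch1, Notch2, Jag1, Hes1 and Hey1), and Notch3, Heyl and Nrarp lay below the count filter. The MSCs were wild-type primary cells grown from the bone marrow of young adult female C57BL/6 mice and expanded through several passages. There were 3 groups of 4 samples. Control MSCs were left untreated, A1 MSCs received 50 µM A1 for 6 h, and A1 + OVA MSCs received 50 µM A1 together with 1 mg/mL of the model antigen ovalbumin (OVA) for 6 h. A1 belongs to the Accum conjugates, in which a short peptide that directs proteins to the nucleus is attached to a bile acid, and the study used it to turn MSCs into antigen-presenting cells. No vehicle control and no group with OVA alone was analysed here, so that OVA was seen only on top of A1. The sources used here do not say whether the 4 samples of a group came from separate animals or cultures, so that the p-values measure the spread between these samples, which may be technical.

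Notch receptors are membrane proteins that are cut when a ligand such as Jagged1 on a neighbouring cell binds them. ADAM proteases make the first cut and gamma-secretase the next, and the freed intracellular part enters the nucleus, where it joins the DNA-binding protein RBPJ and Mastermind-like coactivators. Genes of the HES and HEY families, which encode repressors of transcription, are the classical targets. In bone marrow stroma, Jagged1 and Notch signaling are known for their part in the support of hematopoietic cells and in the balance between stem cell maintenance and bone formation.

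Hes1 rose more than 4-fold with either treatment, Jag1 fell by 37.2% with A1 and by 36.6% with A1 + OVA, and Hey1 fell as well, while neither Notch1 nor Notch2 passed the test. With A1, 1 of the 5 tested members rose and 2 fell. The background was high: 62.7% of the 11314 tested genes were called in that comparison (31.7% higher and 31.1% lower), and with a log2 fold change of 0.5 or more in size, 9.41% were called higher and 11.6% lower. With A1 + OVA, again 1 member rose and 2 fell, against 57.6% of all tested genes called (29.7% higher and 27.9% lower) and, with the added limit of 0.5, 8.92% higher and 8.79% lower. Hes1, Jag1 and Hey1 passed both call rules in both comparisons, which share their 4 control samples. A gene was called at an adjusted p under 0.05 in edgeR's quasi-likelihood test, with Benjamini-Hochberg adjustment over all tested genes. Levels are in CPM (counts scaled to a common library size) on TMM-normalized library sizes, and where genes are compared with each other, in RPKM (CPM divided by exon length in kilobases). In bulk RNA, fewer cells of a kind and less RNA per cell cannot be told apart.

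Libraries held between 13702348 and 16881995 counts, with control libraries at 15644991 or more and A1 libraries at 14347870 or fewer. No pair of replicates was a copy of the same library, since the chi-square per gene between replicate counts was 1.92 to 6.87, where counting noise gives about 1. The library numbers in the column headers follow the groups, and what they stand for is not given in the sources used here, so that this order and treatment cannot be told apart. The 9 MSC markers, led by collagen genes, had a summed level of 8992 to 9876 CPM in control, 8184 to 8920 CPM in A1 and 8367 to 8822 CPM in A1 + OVA samples, and 8 of them could be tested. Within the list, Pdgfra fell from a mean of 247 CPM to 125 CPM with A1 and 111 CPM with A1 + OVA, and Cd44 rose from 175 CPM to 458 and 402 CPM (edgeR adjusted p between 2.37e-17 and 7.10e-13 over both genes and treatments), and their part in the values of the Notch genes was not tested. Eng lay between 7.89 and 10.5 CPM in the 12 samples, and Thy1 and Nt5e had at most 17 and 14 counts in any sample. Endothelial markers summed to at most 1.22 CPM in any sample and 0 of 7 passed the count filter, and 6 macrophage and hematopoietic markers summed to at most 3.02 CPM.

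**Figure D1:**
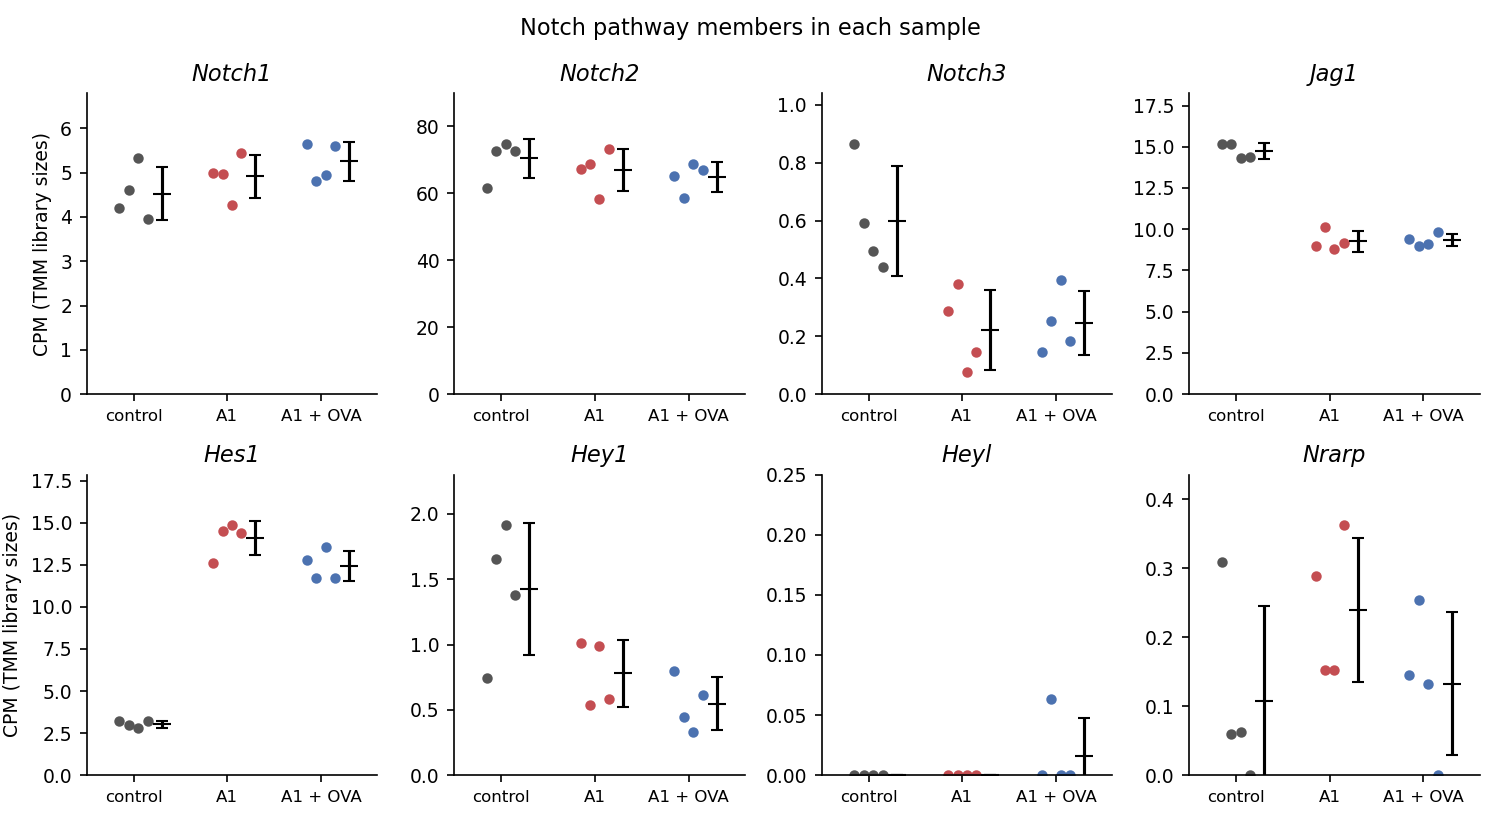
Level of each of the 8 genes in CPM on TMM library sizes (linear axes from 0, one scale per gene) in the 4 samples of the control, A1 and A1 + OVA groups. Points are samples, the horizontal bar is the mean and the vertical bar the SD, clipped at 0. Hes1 lies between 2.78 and 3.22 CPM in control and at 11.7 CPM or more in every treated sample, and Jag1 at 14.3 CPM or more in control and at 10.2 CPM or less in every treated sample.

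Jag1 (ENSMUSG00000027276), which encodes the ligand Jagged1, lies on the minus strand of chromosome 2 at chr2:137081456-137116644 in GRCm38. Its level was 15.2, 15.2, 14.3 and 14.4 CPM in the control samples, 8.97, 10.2, 8.78 and 9.15 CPM with A1, and 9.42, 8.99, 9.11 and 9.86 CPM with A1 + OVA. All 8 treated samples lay below all 4 control samples, and the treated groups overlapped each other. Groups did not overlap for 54.4% of all tested genes with A1 and for 49.4% with A1 + OVA. The log2 fold change of Jag1 was -0.67 ± 0.08 (SE, 95% interval -0.83 to -0.51, edgeR adjusted p = 1.19e-07) with A1. With A1 + OVA it was -0.66 ± 0.07 (SE, 95% interval -0.81 to -0.50, edgeR adjusted p = 1.27e-07). Of the 11314 tested genes, 870 had a lower log2 fold change than Jag1 with A1 and 678 with A1 + OVA. Between A1 + OVA and A1 the difference in Jag1 was 0.01 on the log2 scale (95% interval -0.16 to 0.19, edgeR adjusted p = 0.942).

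The sequence before the Jag1 start is shown because Jag1 was the only ligand among the members and fell in every treated sample, and that before the start of Hey2, a HEY gene outside the 8 members, because Hey2 rose while Hey1 fell. Both come from RefSeq (GRCm38.p6), run 5′ to 3′ on the minus strand, and end before the gene start in the annotation used here. Capitals mark matches to CACGNG in Jag1, letters that HES and HEY proteins are known to bind, and to TGGGAA in Hey2, the core letters bound by RBPJ, on either strand.
Jag1 at chr2:137116645-137116770: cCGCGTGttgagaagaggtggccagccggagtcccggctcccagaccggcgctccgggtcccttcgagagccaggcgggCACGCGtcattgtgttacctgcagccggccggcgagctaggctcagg
Hey2 at chr10:30842802-30843033: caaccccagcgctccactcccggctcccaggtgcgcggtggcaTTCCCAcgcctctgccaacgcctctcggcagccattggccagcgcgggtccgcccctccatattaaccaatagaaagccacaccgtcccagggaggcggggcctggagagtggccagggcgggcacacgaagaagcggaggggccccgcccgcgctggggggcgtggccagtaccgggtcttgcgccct
The 250 bases before the RefSeq start were searched on both strands in 32851 promoters, of which 23.5% held CACGNG at least once, 5.4% held it 2 or more times and 21.6% held TGGGAA. The stretches printed above are the first 126 (Jag1) and 232 (Hey2) of these 250 bases, since the rest lies within the annotated gene. Jag1 had 2 matches to CACGNG, which began 249 and 171 bases before the RefSeq start, and 0 matches to TGGGAA. Hey2 had 1 match to TGGGAA, 207 bases before the RefSeq start, and 0 matches to CACGNG. Hey1 had no entry, so that its letters could not be set beside those of Hey2. Of the 8 members, Notch1, Notch2, Notch3, Jag1 and Nrarp had an entry, and 4 of these 5, all but Notch1, held CACGNG and 0 held TGGGAA. The shares over all promoters were not matched for base composition, so that 4 of 5 cannot be read as an excess. A match describes the letters and not the binding of a factor.

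Among the receptors, Notch2 (ENSMUSG00000027878, chr3:98013527-98150361) was the most abundant. It was measured at 61.7, 72.6, 74.8 and 72.5 CPM in control, 67.3, 68.6, 58.2 and 73.2 CPM with A1, and 65.2, 58.6, 68.7 and 66.8 CPM with A1 + OVA. The 3 groups overlapped. The log2 fold change was -0.08 ± 0.07 (SE, 95% interval -0.22 to 0.06, edgeR adjusted p = 0.340) with A1 and -0.12 ± 0.07 (SE, 95% interval -0.26 to 0.02, edgeR adjusted p = 0.131) with A1 + OVA. That outcome depended on control replicate 1, the lowest control sample: without it, the log2 fold change was -0.18 and passed the test (edgeR adjusted p = 0.0202). Notch2 varied more between samples than counting alone gives, with a coefficient of variation of 8.39% in control against 2.95% from counting. On the same strand, 2 genes of unsettled status overlap Notch2, so that its count carries that uncertainty.

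Notch1 (ENSMUSG00000026923, chr2:26457903-26516663) was measured at 4.21, 4.61, 5.32 and 3.95 CPM in control, 4.99, 4.96, 4.27 and 5.45 CPM with A1, and 5.65, 4.81, 4.95 and 5.61 CPM with A1 + OVA. Treated samples overlapped the control range in both comparisons. The log2 fold change was 0.12 ± 0.12 (SE, 95% interval -0.14 to 0.38, edgeR adjusted p = 0.408) with A1 and 0.21 ± 0.12 (SE, 95% interval -0.04 to 0.46, edgeR adjusted p = 0.133) with A1 + OVA. These intervals leave room for a rise of up to 0.46 on the log2 scale. A microRNA gene, Mir6996, overlaps Notch1 on the same strand.

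Notch3 (ENSMUSG00000038146, chr17:32120820-32166852), a receptor known from pericytes and smooth muscle cells, had few counts. The control samples held 14, 10, 8 and 7 counts, the A1 samples 4, 5, 1 and 2, and the A1 + OVA samples 2, 4, 6 and 3. Each treated sample lay below each control sample, also in CPM, where control ranged from 0.44 to 0.87 CPM and the treated samples from 0.08 to 0.40 CPM. Notch3 was removed by the count filter. Without the filter its log2 fold change was -1.39 ± 0.48 (SE, edgeR adjusted p = 0.0128) with A1 and -1.26 ± 0.46 (SE, edgeR adjusted p = 0.0193) with A1 + OVA. The summed level of mural cell markers, genes of the cells that surround vessels, also differed between the groups. Their summed level over 6 genes was 29.97 to 33.4 CPM in control, 49.9 to 52.1 CPM with A1 and 57.0 to 59.9 CPM with A1 + OVA, while Kcnj8, Abcc9 and Cspg4 stayed at 3 counts or fewer in every sample. Mcam made up most of that sum, with means of 23.7 CPM in control, 44.6 CPM with A1 and 52.0 CPM with A1 + OVA. Within that list, Mcam rose by 0.91 and 1.14 on the log2 scale with A1 and A1 + OVA, whereas Rgs5 fell by 0.68 and 0.61. Their part in the Notch3 result was not tested.

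Hes1 (ENSMUSG00000022528, chr16:30064384-30067796), the best known HES repressor and a direct Notch target in many tissues, had the highest fold change of the members. Its level was 3.22, 2.96, 2.78 and 3.20 CPM in control, 12.6, 14.5, 14.9 and 14.4 CPM with A1, and 12.8, 11.7, 13.5 and 11.7 CPM with A1 + OVA. These levels came from 45 to 52 counts per control sample and 174 to 205 counts per treated sample. All treated samples lay far above all control samples. The log2 fold change was 2.21 ± 0.10 (SE, 95% interval 2.00 to 2.42, edgeR adjusted p = 5.43e-14) with A1, a 4.62-fold increase. With A1 + OVA it was 2.03 ± 0.10 (SE, 95% interval 1.81 to 2.24, edgeR adjusted p = 2.84e-13), a 4.08-fold increase. In the order of all 11314 tested genes by log2 fold change, Hes1 stood at place 59 from the top with A1 and 72 with A1 + OVA. Replicates of Hes1 had a coefficient of variation of 6.82% in control, 7.28% with A1 and 7.13% with A1 + OVA. Counting alone gives 14.2%, 7.27% and 7.27%, so that the control spread was smaller than counting noise.

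Hey1 (ENSMUSG00000040289, chr3:8663359-8667256), a HEY repressor known from vessels and bone, fell. Its level was 0.74, 1.66, 1.92 and 1.38 CPM in control (12, 28, 31 and 22 counts), 1.01, 0.53, 0.99 and 0.58 CPM with A1 (14, 7, 13 and 8 counts), and 0.80, 0.44, 0.33 and 0.62 CPM with A1 + OVA (11, 7, 5 and 10 counts). Control replicate 1 lay within the range of both treated groups, so that the groups overlapped, and the other 3 control samples lay above all treated samples. The log2 fold change was -0.86 ± 0.31 (SE, 95% interval -1.50 to -0.23, edgeR adjusted p = 0.0185) with A1 and -1.38 ± 0.32 (SE, 95% interval -2.05 to -0.71, edgeR adjusted p = 0.000923) with A1 + OVA. The call with A1 depended on single samples. It was lost without A1 replicate 2 (log2 fold change -0.72, edgeR adjusted p = 0.0628), A1 replicate 4 (-0.75, 0.0597), control replicate 2 (-0.78, 0.0531) or control replicate 3 (-0.69, 0.0759). The call with A1 + OVA held in all 12 such fits, with edgeR adjusted p at most 0.00541.

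Heyl (ENSMUSG00000032744, chr4:123233556-123249875), another HEY repressor, was not detectable at this depth: 11 of the 12 samples held 0 counts and A1 + OVA replicate 2 held 1. With 3 counts taken as the smallest signal, a level of up to 0.177 to 0.229 CPM per library could have been missed. Nrarp (ENSMUSG00000078202, chr2:25180758-25183339), a Notch target that encodes an inhibitor of the receptors' intracellular part, held 5, 1, 1 and 0 counts in control, 4, 2, 2 and 5 with A1, and 2, 4, 2 and 0 with A1 + OVA. The groups overlapped, and without the count filter the log2 fold change was 1.11 ± 0.72 (SE, edgeR adjusted p = 0.222) with A1 and 0.27 ± 0.80 (SE, edgeR adjusted p = 0.838) with A1 + OVA.

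**Figure D2:**
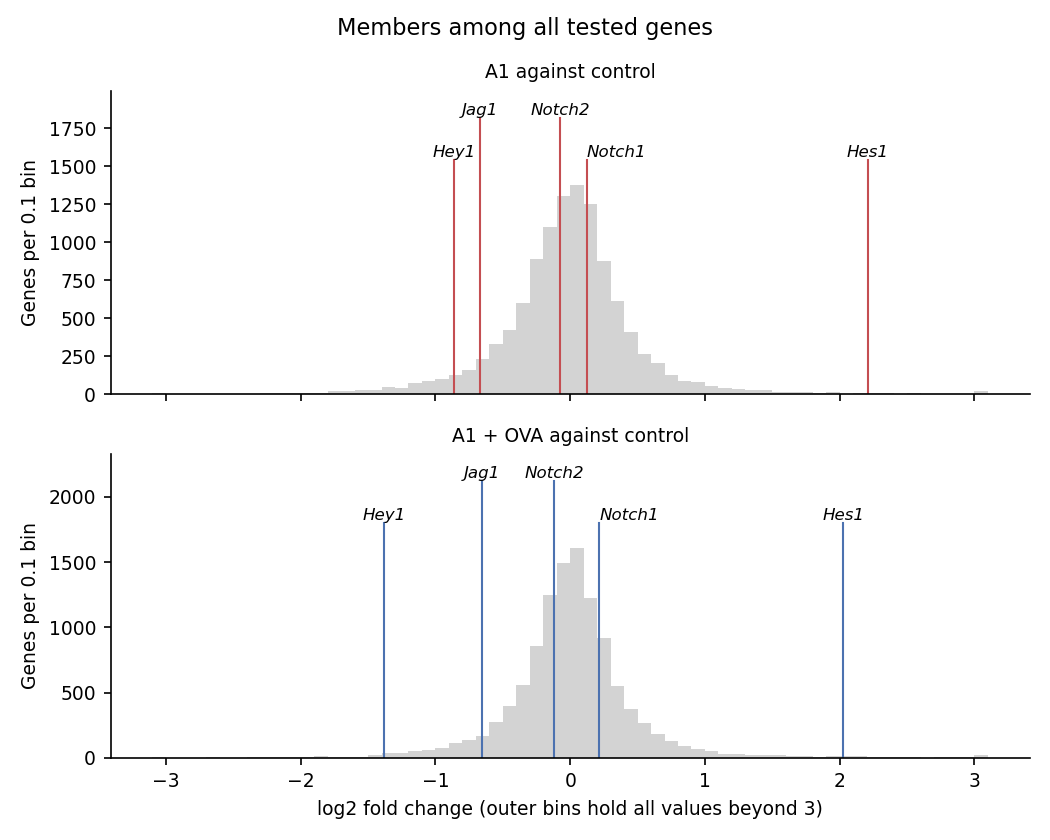
Distribution of log2 fold changes of the 11314 tested genes (horizontal axis; vertical axis, genes per bin, the outermost bins holding all values beyond them), with lines at the 5 tested members, for A1 (top) and A1 + OVA (bottom) against control. Hes1 lies in the upper tail at 2.21 and 2.03, Jag1 at -0.67 and -0.66 and Hey1 at -0.86 and -1.38 lie in the lower tail, and Notch1 and Notch2 lie near the middle.

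Set side by side per exon length, the order of the members changed with treatment. In control, Notch2 led with 6.53 ± 0.548 RPKM (SD, n = 4), followed by Jag1 with 2.53 ± 0.0844 RPKM and Hes1 with 1.49 ± 0.102 RPKM, none of which overlapped the next. Hey1 with 0.436 ± 0.155 RPKM and Notch1 with 0.318 ± 0.0420 RPKM overlapped each other, as did Notch3 with 0.0739 ± 0.0235 RPKM and Nrarp with 0.0417 ± 0.0533 RPKM. With A1, Hes1 stood first with 6.92 ± 0.504 RPKM and overlapped Notch2 with 6.20 ± 0.584 RPKM. Jag1 followed with 1.59 ± 0.105 RPKM, and Notch1 with 0.346 ± 0.0339 RPKM overlapped Hey1 with 0.239 ± 0.0789 RPKM. With A1 + OVA, Hes1 with 6.10 ± 0.435 RPKM and Notch2 with 6.01 ± 0.405 RPKM again overlapped, and Jag1 had 1.60 ± 0.0666 RPKM. Here Notch1 with 0.369 ± 0.0307 RPKM lay above Hey1 with 0.167 ± 0.0626 RPKM without overlap.

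Notch2 made up 94.3% ± 0.780 (SD, n = 4) of the summed RPKM of Notch1, Notch2 and Notch3 in control, 94.3% ± 0.206 with A1 and 93.8% ± 0.252 with A1 + OVA. These shares lay within 1 percentage point of each other. Of the summed RPKM of Hes1, Hey1 and Heyl, Hes1 made up 77.6% ± 7.50 in control, 96.6% ± 1.22 with A1 and 97.3% ± 0.968 with A1 + OVA.

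**Figure D3:**
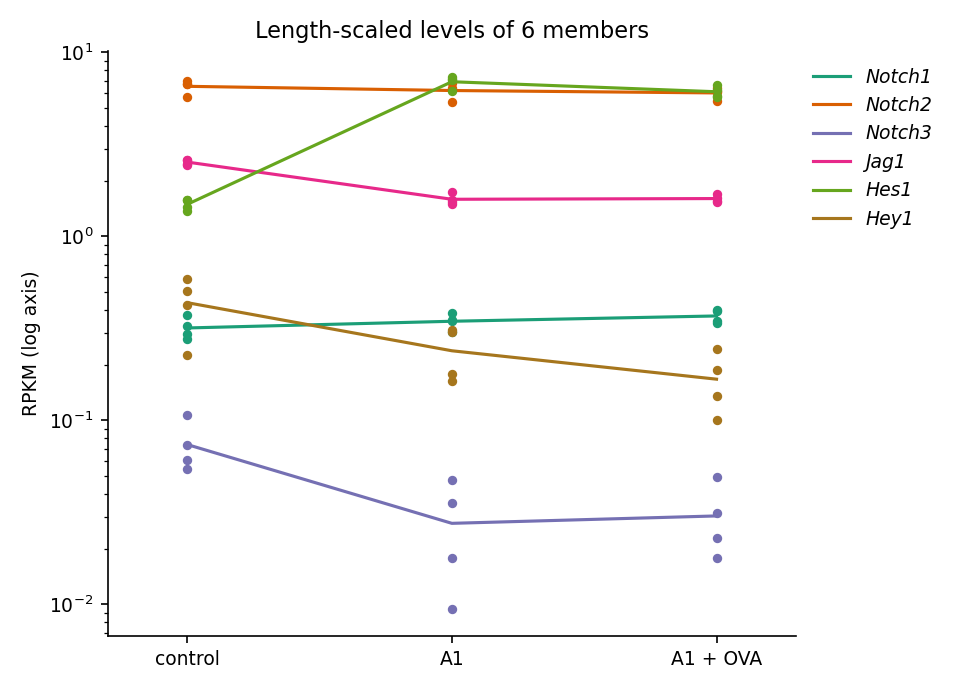
Levels per exon length (RPKM, log axis) of Notch1, Notch2, Notch3, Jag1, Hes1 and Hey1 in the control, A1 and A1 + OVA groups. Points are the 4 samples of a group and lines join the group means. Hes1 goes from 1.49 RPKM in control, below Jag1, to 6.92 and 6.10 RPKM, beside Notch2.

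The comparison of A1 + OVA with A1 asks what the antigen added. None of the 5 tested members was called (0 by edgeR and 0 by DESeq2), where 12.9% of all tested genes were called (6.05% higher and 6.81% lower) and the groups did not overlap for 18.1%. At an unadjusted p under 0.05, edgeR gave 1 member, Hes1, and DESeq2 gave 0. Hes1 was lower with A1 + OVA by a log2 difference of -0.18 ± 0.08 (SE, 95% interval -0.35 to -0.01, edgeR adjusted p = 0.146), and the 2 groups overlapped. For Hey1 the log2 difference was -0.52 ± 0.39 (SE, 95% interval -1.32 to 0.28, edgeR adjusted p = 0.406), an interval wide enough to hold a change in either direction. Notch1 differed by 0.09 (edgeR adjusted p = 0.668) and Notch2 by -0.04 (edgeR adjusted p = 0.717) on the log2 scale.

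Of 63 other genes of the Notch pathway, 50 were tested. With A1, 11 rose, 22 fell and 17 did not pass the test. Over all tested genes, 31.7% rose and 31.1% fell. The median log2 fold change was -0.09 for the pathway genes, against -0.0017 over all tested genes. With A1 + OVA, 11 rose, 19 fell and 20 did not pass, where 29.7% of all tested genes rose and 27.9% fell, with a median of -0.09 against 0.0036. The genes named here are among those that passed the test and changed by 0.5 or more on the log2 scale in a comparison with control.

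Among the other receptors and canonical ligands, Notch4, a receptor known from endothelium, rose from 0.800 ± 0.237 CPM (SD, n = 4) in control to 1.93 ± 0.441 CPM with A1 and 1.53 ± 0.146 CPM with A1 + OVA, with log2 fold changes of 1.27 and 0.93 (edgeR adjusted p = 9.00e-05 and 0.00261). The ligand gene Dll1 fell, like Jag1, from 3.10 ± 0.188 CPM to 1.26 ± 0.237 CPM and 1.78 ± 0.256 CPM, with log2 fold changes of -1.29 and -0.80 (edgeR adjusted p = 1.70e-06 and 0.000171). Neither treated group overlapped control for either gene, as for 54.4% of all tested genes with A1 and 49.4% with A1 + OVA. Counts were low, at 9 to 32 per sample for Notch4 and 12 to 55 for Dll1. Dll3 and Dll4 held at most 1 count in any sample and were not detectable.

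Over the 3 lists of genes that act on receptors and ligands around binding, 11 of 23 tested genes fell and 0 rose with A1. Over all tested genes, 31.1% fell and 31.7% rose in that comparison. With A1 + OVA, 7 of 23 fell and 1 rose, where 27.9% of all tested genes fell and 29.7% rose. These 3 lists were pooled after their separate counts were known, and the RBPJ list below was not part of the pool. Of 5 sugar transferases, which tune how receptors bind ligands, 4 were tested: 4 fell with A1 and 3 with A1 + OVA, by less than 0.5 on the log2 scale, and Mfng was listed at 0 counts throughout. Of 8 ADAM protease and gamma-secretase genes, 3 fell in each comparison, and 1 rose with A1 + OVA. Adam17, a receptor-cutting protease, fell by 0.61 and 0.60 on the log2 scale with A1 and A1 + OVA, and Aph1b, a gamma-secretase subunit, by 0.62 and 0.63. Of 11 tested genes of endocytosis and turnover, 4 fell with A1 and 1 with A1 + OVA. Mib2, a ubiquitin ligase for Notch ligands, fell by 0.51 with A1 and had a log2 fold change of -0.11 with A1 + OVA (edgeR adjusted p = 0.368). Dtx3l, of the Deltex family, fell by 0.65 and 0.51. Dtx1 of the same list was not detectable.

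Of 15 genes of the RBPJ complex and its co-regulators, 3 rose and 9 fell in each comparison. Over all tested genes, 31.7% rose and 31.1% fell with A1, and 29.7% rose and 27.9% fell with A1 + OVA. Maml3, a Mastermind-like coactivator, fell by 0.37 and 0.52 on the log2 scale with A1 and A1 + OVA, and the acetyltransferase gene Kat2b by 0.54 and 0.53. The Groucho-type corepressors went both ways: Tle1 rose by 0.77 and 0.45, whereas Tle2 fell by 1.46 and 1.00 and Tle3 by 0.37 and 0.57. Rbpj itself, named because the pathway runs through it and after its values were seen, had a log2 fold change of -0.02 (edgeR adjusted p = 0.728) with A1 and fell by 0.15 (edgeR adjusted p = 0.000732) with A1 + OVA.

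Of the other HES and HEY genes, Hey2, a repressor known from heart and vessels, rose from 1.44 ± 0.356 CPM (SD, n = 4) to 3.91 ± 0.816 CPM with A1 and 4.59 ± 0.439 CPM with A1 + OVA, with log2 fold changes of 1.43 and 1.67 (edgeR adjusted p = 1.53e-06 and 8.80e-08). Per exon length, Hey2 went from 0.313 RPKM to 0.851 and 1.00 RPKM while Hey1 went from 0.436 to 0.239 and 0.167 RPKM. Hes6, the other tested gene of this list, lay between 10.05 and 14.8 CPM in control, 11.2 and 11.9 CPM with A1 and 10.6 and 13.1 CPM with A1 + OVA, with log2 fold changes of -0.06 and -0.07 (edgeR adjusted p = 0.619 and 0.587), and was named after its values were seen. Hes2, Hes3 and Hes5 were not detectable, with at most 1 count in any sample.

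Of 7 other genes known to respond to Notch in some cell types, 5 rose and 1 fell with A1. With A1 + OVA, 5 rose and 2 fell. The shares over all tested genes were 31.7% higher and 31.1% lower with A1 (62.7% in either direction). For A1 + OVA they were 29.7% higher and 27.9% lower (57.6% in either direction). Efnb2, an ephrin of arteries, rose by 1.40 and 1.17 on the log2 scale, Myc, a growth regulator, by 1.03 and 0.95, and Acta2, the smooth muscle actin, by 0.94 and 1.01. The cell cycle genes Ccnd1 and Cdkn1a rose by 0.52 and 0.38 and by 0.51 and 0.44. Snai2, a repressor of epithelial genes, fell by 1.27 and 1.13.

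**Figure D4:**
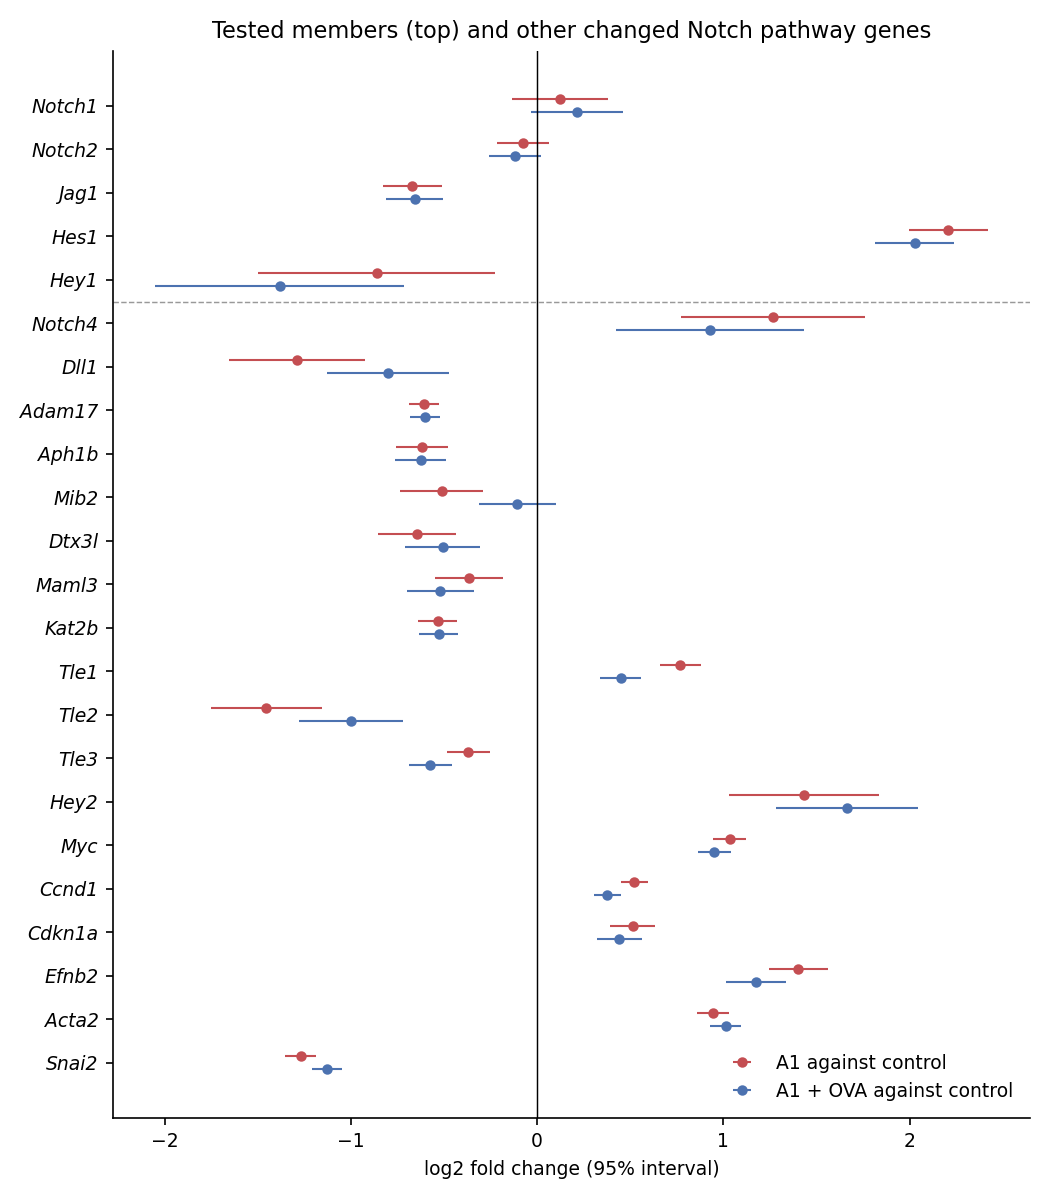
Log2 fold changes against control with 95% intervals for the 5 tested members (above the dashed line) and for other pathway genes that passed the test and changed by 0.5 or more, in A1 (red) and A1 + OVA (blue). Hes1 is the highest point in both comparisons, at 2.21 and 2.03.

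Between A1 + OVA and A1, 4 of the 50 other pathway genes were higher and 6 lower, against 6.05% and 6.81% of all tested genes. None of the 50 passed with a log2 difference of 0.5 or more in size (0.769% of all tested genes did upward and 0.433% downward). Tle1 was lower with A1 + OVA by -0.32 on the log2 scale (edgeR adjusted p = 0.000301). Mib2 was higher by 0.41 (edgeR adjusted p = 0.0164), a call lost without A1 replicate 3 (0.31, edgeR adjusted p = 0.0703). Dtx4 of the Deltex family, named after its values were seen, was higher by 0.47 (edgeR adjusted p = 0.000894).

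Outside the pathway lists, likeness to a tested member was measured among the 9074 genes whose average log2 CPM reached 3, by the root mean square difference over the 12 samples of log2 CPM relative to the control mean. Plaur, the urokinase receptor gene, came closest to Hes1 at 0.120, where the median gene differed by 1.68. Hsd17b7, a gene of cholesterol synthesis, came closest to Jag1 at 0.0649 against a median of 0.569. The next genes were nearly as close to Jag1, at 0.0688 and 0.0693. Bcl2l11, which encodes the cell death protein Bim, came closest to Hey1 at 0.343 against 0.921, a looser match. Tasp1 came closest to Notch1 at 0.0962 against 0.251. The nearest of so many genes lies below the median by construction.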

How the data were processed

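The authors prepared strand-specific poly(A) libraries and deposited raw counts per Ensembl gene, without normalization. The submitters' processing notes name STAR 2.7, featureCounts 2.0 and GRCm38. From these counts, symbols, biotypes and exon lengths were assigned with GENCODE M21, which held 99.53% of the 55487 identifiers, and 21974 protein-coding genes were kept. All columns were matched to a sample by title. After filterByExpr and TMM scaling, genes were tested by quasi-likelihood with edgeR 4.0.16 (R 4.3.3) in 1 fit of 12 samples, 3 groups and no covariate, with Benjamini-Hochberg adjustment over 11314 genes. DESeq2 1.42.0 was an alternative, beside other normalizations, filters, gene universes and call rules, only the groups compared, the replicate number as a block, and each sample left out. Log2 CPM used a prior count of 2. Floors of 3 counts cover counting error only. The tests were checked on simulated counts.

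The members and lists were chosen with earlier results of these data known. Named were all members, list genes past adjusted p 0.05 that changed by 0.5 or more on the log2 scale against control, undetectable list genes (at most 3 counts everywhere), and the gene nearest in pattern to each tested member. A few genes selected in this way are not reported here.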

Additional observations from a re-analysis of the deposited data

Results flagged for a closer look

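Myc in A1 + OVA replicate 3 was at 137 CPM, while the other 3 samples lay between 126.7 and 126.8 CPM. Of 78 groups of 4 samples checked over 27 genes, this was the 1 with a sample so far from the rest, where chance gives about 1 in 20 groups.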

How the results depend on the processing

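Of 296 log2 fold changes of members under the alternatives, 287 kept their direction and side of the threshold, 4 lost the call (Hey1 with A1, each with 1 sample left out), 1 gained it (Notch2 with A1 + OVA) and 4 changed sign, all near 0 and not called. Those were between A1 + OVA and A1, where with 1 sample left out Jag1 ran from -0.0141 to 0.0598 and Notch2 from -0.108 to 0.0015. Of 2997 for other pathway genes, 2848 kept both, 30 lost the call, 48 gained it and 71 changed sign. Of the sign changes, 0 were called before or after. Hes6 was among those that changed sign without control replicate 1, with ranges of -0.142 to 0.0528 (A1) and -0.148 to 0.0471 (A1 + OVA). With at least 10 counts in every sample, 1 member was lower in either comparison with control, since Hey1 was no longer tested. With 1 sample left out, 1 to 2 members were lower with A1. For A1 + OVA against A1, 3 to 6 other pathway genes were lower, and over all genes 456 (without A1 replicate 1) to 771 were higher and 497 (without A1 + OVA replicate 4) to 848 lower, against 685 and 770.

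With a lower limit of 0.5 or 1 on the size of the log2 fold change, these counts fell by construction. At 1, 0 members were lower with A1 and 1 with A1 + OVA. Of other pathway genes with A1, 4 were higher at 1, and 8 and 3 were lower at 0.5 and 1. With A1 + OVA, 6 and 3 were higher and 9 and 2 lower. Against A1, 0 were higher and 0 lower at either. Over all genes, 1065 and 333 were higher and 1307 and 412 lower with A1, 1009 and 302 higher and 995 and 288 lower with A1 + OVA, and 87 and 9 higher and 49 and 7 lower between treatments.

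Samples with the same replicate number had a mean correlation of their deviations of 0.0215 over 12 pairs (-0.132 to 0.156). For samples of different groups with different numbers, the mean was -0.0070 over 36 pairs (-0.183 to 0.175). What the number marks is not stated, so that the numbers were not taken to pair the samples. With the replicate block, Hes1 changed by 2.21 and 2.03, Jag1 by -0.67 and -0.66 and Hey1 by -0.86 and -1.38 on the log2 scale, with 1 member higher and 2 lower as before. Depth limits Notch3, Heyl and Nrarp, at 14 counts or fewer in any sample.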
